A study of Rattus norvegicus with 12 samples.

Results

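Protein kinase A (PKA) is built from 2 catalytic and 4 regulatory subunit genes, and the mRNA of these 6 genes was followed in 12 libraries of ND7/23 cells. The genes were taken by symbol from the deposited table of 21556 genes. *Prkaca* and *Prkacb* encode the catalytic subunits Cα and Cβ, *Prkar1a* and *Prkar1b* encode the type I regulatory subunits RIα and RIβ, and *Prkar2a* and *Prkar2b* encode the type II regulatory subunits RIIα and RIIβ. All 6 were found and all 6 passed the minimum of a mean FPKM of 0.5 (fragments per unit of gene length and of sequencing depth). ND7/23 is a hybrid line of mouse neuroblastoma and rat dorsal root ganglion neurons. Untreated control cells were compared with cells given 100 μM menthol, an agonist of the cold receptor TRPM8, with cells given 100 ng/ml Wnt3a, which activates Wnt/β-catenin signaling, and with cells given both agents (the menthol with Wnt3a group), each for 6 h and with 3 libraries. The study asked how TRPM8 acts on Wnt/β-catenin signaling and named PKA and GSK-3β in its answer, so the abundance of the kinase's own subunits in each group is the question here. The labels number the 3 libraries of a group and do not say whether they came from separate cultures, so p-values measure the spread between these libraries.

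In the resting holoenzyme a dimer of regulatory subunits holds a pair of catalytic subunits inactive. When cAMP binds the regulatory subunits, the catalytic subunits are set free and phosphorylate serine and threonine residues of their targets, among them the transcription factor CREB and GSK-3β. Type II regulatory subunits are mostly held at membranes and organelles by A-kinase anchoring proteins, whereas much of the type I kinase is cytosolic. The α genes are expressed in nearly all tissues, and RIβ and RIIβ are known for their abundance in neurons.

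The promoters of *Prkar1b* and *Prkaca* are printed because *Prkar1b* was the member that passed a test and *Prkaca* was the catalytic gene with the lowest p-values. They come from RefSeq on the rat build GRCr8 and run 5′ to 3′ along the gene from 250 bases before to 50 bases after the start. The submitters' processing notes name another rat build, mRatBN7.2, for the deposited values, and the coordinates below belong to GRCr8. *Prkar1b* has 2 listed starts on the plus strand, at chr12:20625674-20625973 and chr12:20639991-20640290. The promoter of *Prkaca* lies on the minus strand at chr19:41083140-41083439. Capitals mark matches to TGACG, the core of the cAMP response element, on either strand (CGTCA on the other).
Prkar1b, first start: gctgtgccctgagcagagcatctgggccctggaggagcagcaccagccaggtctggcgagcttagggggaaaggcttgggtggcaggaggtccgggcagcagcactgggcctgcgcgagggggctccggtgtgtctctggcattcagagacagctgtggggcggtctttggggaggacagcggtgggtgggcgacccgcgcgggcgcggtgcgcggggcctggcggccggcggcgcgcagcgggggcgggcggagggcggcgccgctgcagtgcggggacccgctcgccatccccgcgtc
Prkar1b, second start: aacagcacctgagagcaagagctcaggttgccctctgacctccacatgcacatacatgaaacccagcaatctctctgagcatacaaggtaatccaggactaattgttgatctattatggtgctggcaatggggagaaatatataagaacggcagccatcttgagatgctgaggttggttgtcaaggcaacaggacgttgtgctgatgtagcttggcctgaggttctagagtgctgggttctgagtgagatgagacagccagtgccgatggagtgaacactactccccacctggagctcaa
Prkaca: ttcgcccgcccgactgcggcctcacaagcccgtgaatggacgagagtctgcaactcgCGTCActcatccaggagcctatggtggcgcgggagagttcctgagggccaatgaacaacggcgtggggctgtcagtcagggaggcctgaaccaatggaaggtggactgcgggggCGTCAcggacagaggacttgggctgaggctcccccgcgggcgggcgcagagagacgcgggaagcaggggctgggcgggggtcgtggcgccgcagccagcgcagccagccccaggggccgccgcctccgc

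Promoters were found for 5 of the 6 genes, and none was listed for *Prkar2a*. The core TGACG, searched on both strands, occurred 2 times in the *Prkaca* window and 1 time in the *Prkacb* window, and was not found in those of *Prkar1a*, *Prkar1b* or *Prkar2b*. Of all 33469 promoters in the same collection, 21.2% held this core. The full element TGACGTCA, which contains the core, was in 1.83% of all promoters and in none of the members' windows. Letters bound by TCF/LEF factors, the DNA-binding partners of β-catenin (CTTTGAA or CTTTGAT, with the variants CTTTGTA and, on either strand as all of these, CTTTGTT), were in 17.1% of all promoters and in none of the members' windows. The share of G and C was 75.3% at the first *Prkar1b* start, 49.7% at the second and 70.3% at *Prkaca*, against a median of 51.7% over all promoters. These matches describe letters in 300 bases and do not show which start was used in the cells.

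The libraries were alike in depth. The FPKM values gave back whole read counts, and the library totals implied by them ranged from 36920742 to 38842282 reads, a ratio of 1.05. Sensory neuron markers were largely absent from these cells: 1 of the 11 markers measured, the transcription factor gene *Isl1*, had a mean FPKM of at least 0.5, while *Prph*, *Tubb3*, *Pou4f1*, *Scn9a*, *Scn10a* and *Calca* had at most 9 reads in any library, *Gap43* had at most 12, and *Trpm8*, the menthol receptor gene, had a mean FPKM of 0.234. Of the 5 fibroblast markers measured, 3 had a mean FPKM of at least 0.5: *Col1a2* (115), *Col1a1* (6.74) and *Pdgfra* (6.53). *Dcn* and *Lum* had at most 22 and 13 reads in any library. The label of a sensory neuron hybrid is therefore carried by few of its defining transcripts. How reads of mouse transcripts were placed on a rat genome is not given in the sources used here, and it bears on every level below.

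*Prkar1a*, on chromosome 10, was the most abundant of the 6 genes. Its FPKM was 128.2, 133.8 and 134.2 in control cells, 131.5, 133.9 and 129.8 with menthol, 129.5, 128.0 and 130.2 with Wnt3a, and 129.9, 130.2 and 130.5 with both agents. The 4 groups overlapped, and the coefficient of variation of its FPKM over the 12 libraries was 1.61%, the lowest of the 6 genes. Its mean FPKM of 130.8 placed it at rank 526 of all genes in the table, with 16386 to 17974 reads per library.

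*Prkar2a*, on chromosome 8, came next. Its FPKM was 66.4, 66.6 and 66.3 in control cells, 62.5, 65.8 and 66.6 with menthol, 61.4, 59.6 and 64.5 with Wnt3a, and 62.8, 64.4 and 65.8 with both agents. The Wnt3a group and the menthol with Wnt3a group each lay below all 3 control libraries, while the menthol group overlapped with control. Its mean FPKM was 64.4 (rank 1190).

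The catalytic genes lay lower. *Prkaca*, on chromosome 19, had an FPKM of 29.8, 28.9 and 28.3 in control cells, 29.6, 27.1 and 29.9 with menthol, 27.5, 25.1 and 27.2 with Wnt3a, and 29.0, 29.0 and 29.9 with both agents. All 3 Wnt3a libraries were below all control libraries and below all libraries given both agents, and they overlapped with the menthol group. *Prkacb*, on chromosome 2, had an FPKM of 9.87, 9.63 and 10.2 in control cells, 9.61, 9.86 and 9.63 with menthol, 10.1, 10.4 and 10.2 with Wnt3a, and 10.3, 9.54 and 10.3 with both agents. Its groups spanned a narrow range, and its coefficient of variation was 3.25%.

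*Prkar1b*, on chromosome 12, varied most of the 6 genes. Its FPKM was 10.92, 11.25 and 10.95 in control cells, 10.2, 10.2 and 9.18 with menthol, 13.8, 12.6 and 12.03 with Wnt3a, and 11.4, 11.8 and 11.5 with both agents. No 2 groups overlapped: menthol was lowest, followed by control, by both agents together and by Wnt3a alone. The highest library was 1.5 times the lowest, the coefficient of variation was 10.6%, and each library held 1161 to 1741 reads of the gene.

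*Prkar2b*, on chromosome 6, was the least abundant. Its FPKM was 5.58, 5.62 and 5.33 in control cells, 5.15, 5.85 and 5.01 with menthol, 5.55, 4.76 and 5.74 with Wnt3a, and 5.93, 4.75 and 6.12 with both agents. Replicates of one group spread as widely as the whole set, with a coefficient of variation of 8.26% on 564 to 746 reads per library.

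**Figure D1:**
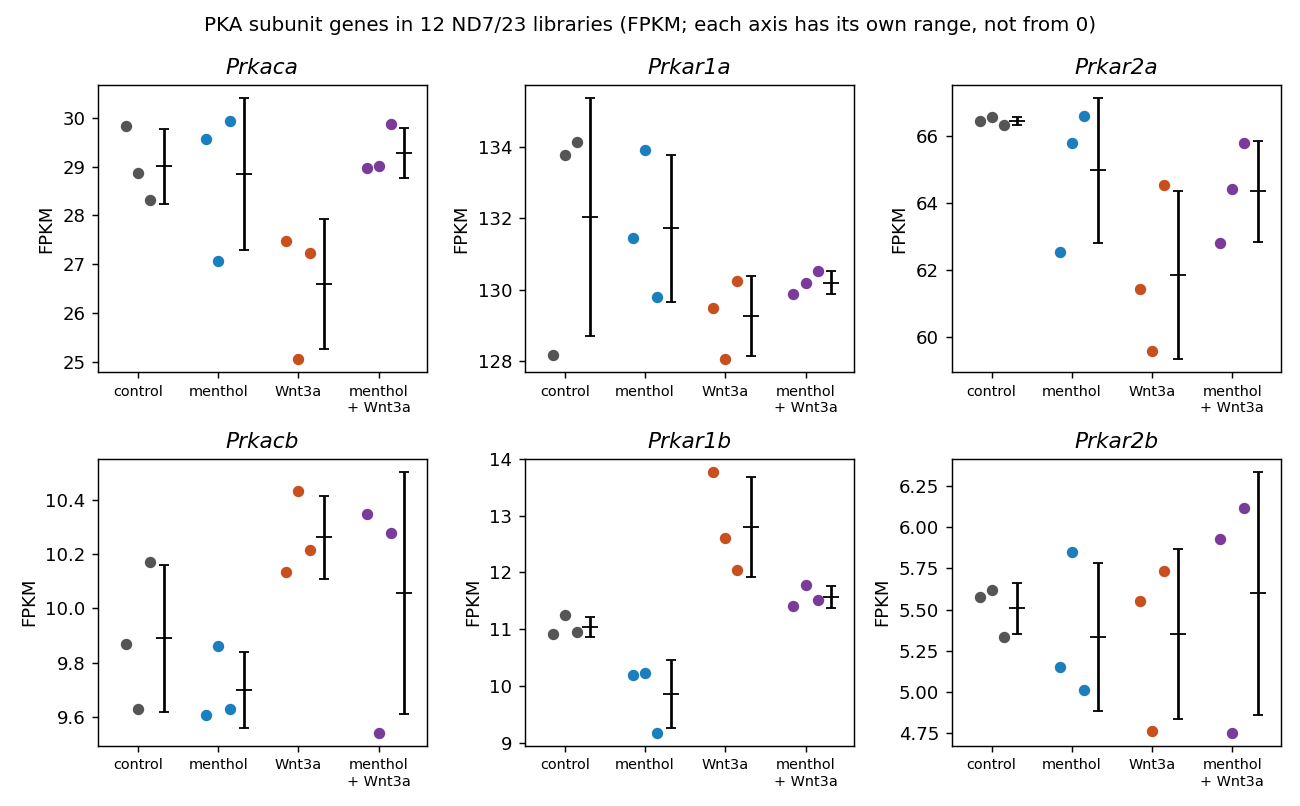
FPKM of the 6 PKA subunit genes in each of the 12 libraries, with 1 point per library and the bar beside each group giving the mean ± SD of its 3 libraries; each vertical axis has its own range and does not start at 0. In the *Prkar1b* panel the menthol libraries (9.18 to 10.2) lie lowest and the Wnt3a libraries (12.03 to 13.8) highest, and in the *Prkar2b* panel every group overlaps with every other.

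The order of mean FPKM over the 12 libraries was *Prkar1a* (130.8), *Prkar2a* (64.4), *Prkaca* (28.4), *Prkar1b* (11.3), *Prkacb* (9.98) and *Prkar2b* (5.45). Neighbours in this order did not overlap over the 12 libraries except *Prkar1b* and *Prkacb*. *Prkar1b* was above *Prkacb* in 11 of 12 libraries, the exception being 1 menthol library. From the top to the bottom of the order the mean FPKM fell 24.0-fold.

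The balance of isoforms was measured as shares of summed FPKM in each library. *Prkaca* made up 74.0% ± 1.47 (SD, n = 12) of the catalytic FPKM. Its share was 74.6% ± 0.863 in control cells, 74.8% ± 1.31 with menthol, 72.1% ± 1.33 with Wnt3a and 74.4% ± 0.789 with both agents (SD, n = 3 each). The Wnt3a libraries (70.6 to 73.1%) lay below every library of the other 3 groups, of which the lowest was a menthol library at 73.3%. These shares combine *Prkaca* and *Prkacb* FPKM, and no test was made of them. They rest on division by gene length, 2514 bases for *Prkaca* against 7840 for *Prkacb*. Undivided reads per library were 2326 to 2913 for *Prkaca* and 2874 to 3085 for *Prkacb*.

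Of the regulatory FPKM, *Prkar1a* took 61.7% ± 0.576, *Prkar2a* 30.4% ± 0.773, *Prkar1b* 5.34% ± 0.600 and *Prkar2b* 2.57% ± 0.195 (SD, n = 12). Type I genes together took 67.1% ± 0.807 of it. The share of *Prkar1b* was 5.13% ± 0.0705 in control cells, 4.66% ± 0.266 with menthol, 6.12% ± 0.445 with Wnt3a and 5.46% ± 0.0997 with both agents (SD, n = 3 each). The 4 groups did not overlap in this share, which rests on the same *Prkar1b* values as the FPKM above. The type I share as a whole, most of it *Prkar1a*, ran from 65.9 to 68.6% over the 12 libraries.

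Catalytic FPKM summed to 38.4 ± 1.34 and regulatory FPKM to 212.0 ± 3.51 (SD, n = 12), a ratio of 0.181 ± 0.00627. The ratio was 0.181 in control cells, 0.182 with menthol, 0.176 with Wnt3a and 0.186 with both agents. The control and menthol groups overlapped with the other groups in this ratio, whereas the Wnt3a group (0.173 to 0.179) lay below the group given both agents (0.183 to 0.188). These are ratios of mRNA, and protein was not measured in these files. The 3 β genes, *Prkacb*, *Prkar1b* and *Prkar2b*, together held 10.7% of the FPKM of all 6 genes, with means of 10.4% in control cells, 9.94% with menthol, 11.5% with Wnt3a and 10.8% with both agents.

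**Figure D2:**
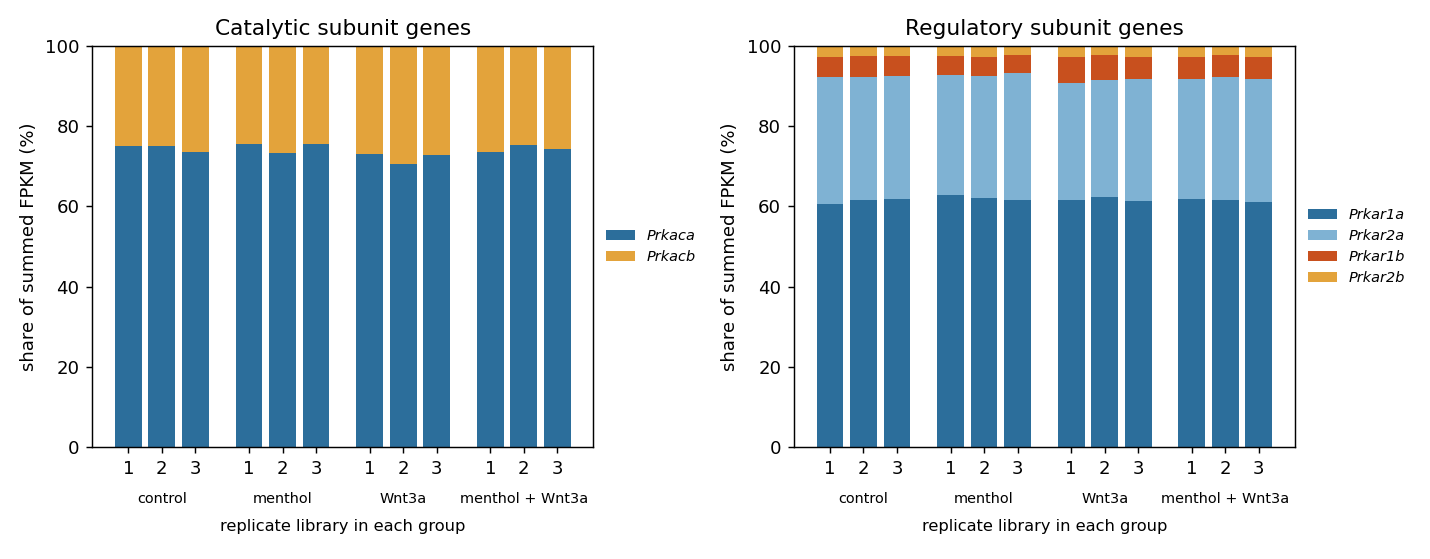
Share of summed FPKM (%, from 0 to 100) in each of the 12 libraries, for the 2 catalytic genes on the left and the 4 regulatory genes on the right, with 1 stacked bar per library. The α genes fill most of every bar, and the *Prkar1b* band is thickest in the Wnt3a libraries, at 6.12% on average against 4.66% with menthol.

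Changes were tested with limma on log2(FPKM + 0.1) in 1 fit over the 12 libraries, with Benjamini-Hochberg adjustment over all 11451 genes, and a gene passed at an adjusted p under 0.05. All changes below are differences on that log2 scale with their standard error (SE). The comparisons share libraries, the control libraries among them, and are not independent of each other. No member reached the 2-fold change that the study's methods ask for.

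*Prkar1b*, the RIβ gene, rose with Wnt3a taken over both menthol levels, that is, in the 6 libraries given Wnt3a against the 6 not given it. The change was 0.22 (SE 0.039), or 16.4% higher, with an adjusted p of 0.0176 by limma. It was higher in all 6 libraries, each above all 6 without Wnt3a. An exact two-sided permutation test that moves libraries within each menthol level (400 splits) gave p = 0.005, the smallest it can give, and 0.07 to 0.875 for the other 5 members. It was run for the 6 members alone, without adjustment. Of all genes tested, 0.803% passed this comparison and 1.17% had no overlap between the 6 and 6 libraries, and *Prkar1b* was the 1 of 6 members in both counts. The adjusted p rose to 0.0536 without control replicate 1 and to 0.0536 without menthol with Wnt3a replicate 2. It was 0.0528 with no FPKM minimum and 0.0532 without the variance trend. All of these are above 0.05, so *Prkar1b* did not pass there. The change stayed between 0.19 and 0.24 when each library was left out in turn. *Isl1*, the 1 of 11 sensory neuron markers with a mean FPKM of at least 0.5, moved with the same libraries. It made up nearly all of the summed FPKM of that list. The sum was 11.7 to 12.2 in control cells, 10.04 to 11.5 with menthol, 14.9 to 18.5 with Wnt3a and 16.0 to 16.6 with both agents. The other markers lay below the minimum for testing. The part of *Isl1* in the *Prkar1b* result was not tested. In RNA from whole cultures, fewer cells of a type and less RNA per cell cannot be told apart.

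Split by menthol, the difference in *Prkar1b* was 0.21 (SE 0.056) for Wnt3a against control and 0.23 (SE 0.056) for both agents against menthol alone. Neither passed by limma, at an adjusted p of 0.104 and 0.279. For Wnt3a against control the adjusted p was 0.0440 without Wnt3a replicate 3 and 0.0461 with limma voom on the recovered read counts. Both are under 0.05, so *Prkar1b* passed there. The interaction, the difference between the Wnt3a effects with and without menthol, was 0.019 (SE 0.079, adjusted p = 0.968 by limma), with an interval of 2 SE from 0.909-fold to 1.13-fold. Both agents together against control gave 0.067 (SE 0.056, adjusted p = 0.653 by limma).

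With menthol, *Prkar1b* had lower values that did not pass. Over both Wnt3a levels the difference was -0.15 (SE 0.039), with an adjusted p of 0.0813 by limma and of 0.0436 with voom. The exact permutation test within Wnt3a levels gave an unadjusted p = 0.005, the smallest it can give. Any gene apart in the same direction at both Wnt3a levels reaches it. Of all genes tested, 15.9% were apart for menthol against control and 17.7% for both agents against Wnt3a. The 6 libraries with menthol overlapped with the 6 without it. The difference was -0.16 (SE 0.056, adjusted p = 0.388) for menthol against control and -0.14 (SE 0.056, adjusted p = 0.268) for both agents against Wnt3a, the latter -0.090 without Wnt3a replicate 1. The summed fibroblast markers, mostly *Col1a2*, were at 133.6 to 142.0 FPKM in control cells, 121.3 to 125.7 with menthol, 126.0 to 132.6 with Wnt3a and 122.3 to 123.6 with both agents, and their part in these values was not tested.

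The limma F-test for any difference between the 4 groups passed for *Prkar1b*, with an adjusted p of 0.0204, and for 0 of the other 5 members. Of all genes tested, 0.978% passed it. Leaving out menthol replicate 3, Wnt3a replicate 1 or Wnt3a replicate 2 brought the adjusted p of *Prkar1b* to 0.0606, 0.0609 and 0.0621. The adjusted p was 0.0658 with no FPKM minimum and 0.0710 without the trend. All of these values lie above the threshold, so *Prkar1b* did not pass in these settings.

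*Prkaca*, the catalytic gene with the higher FPKM, passed no comparison. The Wnt3a group differed from control by -0.13 (SE 0.046), a change of -8.35%, with an unadjusted p of 0.0158 and an adjusted p of 0.212 by limma. Both agents together differed from Wnt3a alone by 0.14 (SE 0.046, adjusted p = 0.204) and from control by 0.014 (SE 0.046, adjusted p = 0.928). The interaction was 0.15 (SE 0.065) with an unadjusted p of 0.0378 and an adjusted p of 0.715. The difference between Wnt3a and control was -0.084 without Wnt3a replicate 2, the lowest library, against -0.13 with it. The difference with Wnt3a over both menthol levels was -0.051 (SE 0.032, adjusted p = 0.516), and -0.030 without Wnt3a replicate 2.

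*Prkacb*, the other catalytic gene, gave differences from -0.030 to 0.053 in the 8 comparisons, with adjusted p-values of 0.503 to 0.996 by limma. For Wnt3a against control the interval of 2 SE ran from 0.975-fold to 1.10-fold.

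*Prkar2a*, the RIIα gene, also passed no comparison. The Wnt3a group differed from control by -0.10 (SE 0.035), a change of -6.94%, with an adjusted p of 0.183 by limma, and both agents together by -0.047 (SE 0.035, adjusted p = 0.613). Over both menthol levels the difference with Wnt3a was -0.059 (SE 0.025) with an unadjusted p of 0.0327 and an adjusted p of 0.296. The 2 remaining regulatory genes were furthest from the threshold: *Prkar1a* gave differences from -0.030 to 0.014 with adjusted p-values of 0.618 to 0.985, and *Prkar2b*, with the fewest reads and the largest SE (0.068 to 0.14), gave -0.048 to 0.11 with adjusted p-values of 0.820 to 0.980.

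**Figure D3:**
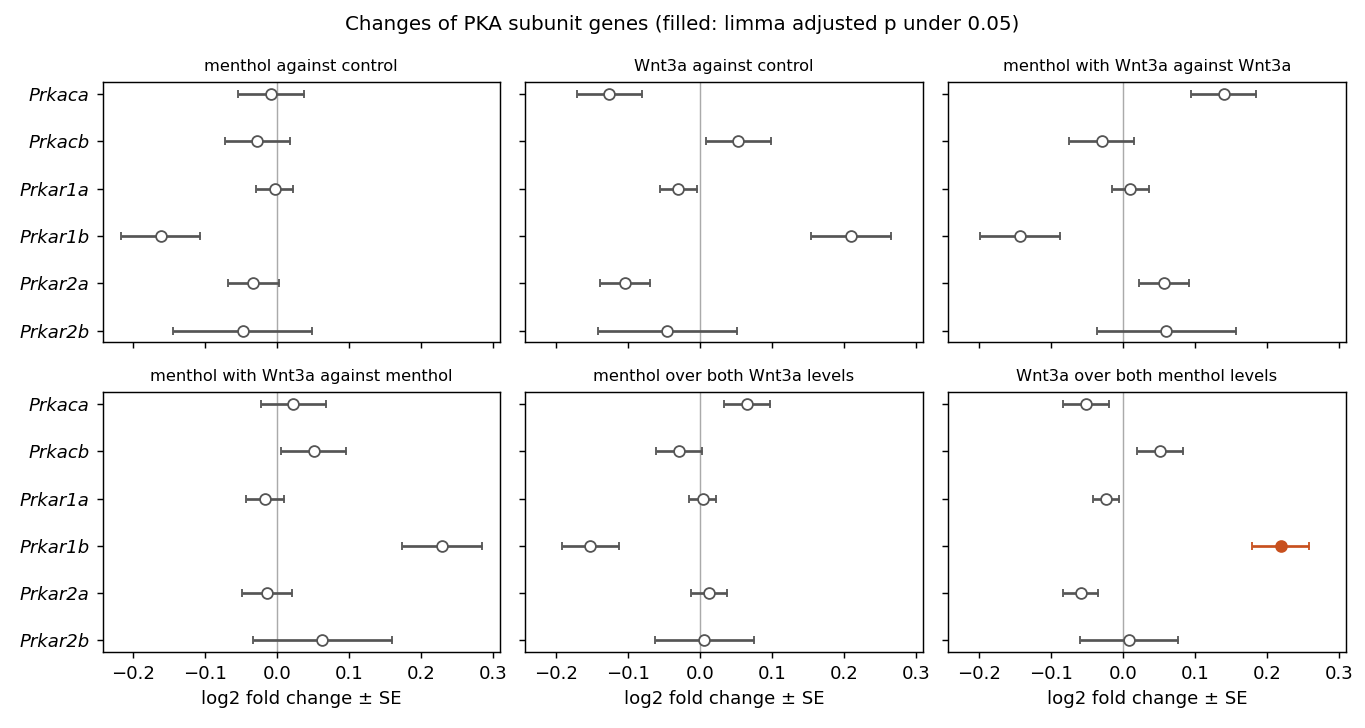
Difference on the log2(FPKM + 0.1) scale ± SE of each PKA subunit gene in 6 comparisons, with a filled point where the limma adjusted p is under 0.05. *Prkar1b* stands to the right in the 3 Wnt3a comparisons and to the left in the 3 menthol comparisons, and its point is filled for Wnt3a over both menthol levels (0.22, adjusted p = 0.0176).

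Counted over the 6 members, limma passed 0 for menthol against control, where 0.105% of all genes passed, and 1 member had an unadjusted p under 0.05, as did 9.34% of all genes. It passed 0 for Wnt3a against control (0.437% of all genes), with 3 members and 15.1% of all genes under an unadjusted 0.05, and 1 member among the 303 genes that passed with voom. It passed 0 for both agents against control (0.83% of all genes), with 0 members and 13.5% of all genes under an unadjusted 0.05. For both agents against Wnt3a it passed 0 (0.0524% of all genes), with 2 members and 14.5% of all genes under an unadjusted 0.05, and for both agents against menthol 0 (0.0961% of all genes), with 1 member and 6.72% of all genes. No member passed the interaction, where 0% of all genes passed by limma and 0 genes by voom, with 1 member and 6.99% of all genes under an unadjusted 0.05. For menthol over both Wnt3a levels 0 members passed against 1.15% of all genes, with 1 member and 15.5% of all genes under an unadjusted 0.05, and 1 member among the 294 genes that passed with voom.

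Groups of 3 and 3 libraries without overlap are common in these data, and the members' counts are read against that. For menthol against control, 1 of 6 members did not overlap, against 15.9% of all genes. For Wnt3a against control it was 3 of 6 (*Prkaca*, *Prkar1b* and *Prkar2a*) against 20.2%, and for both agents against control 2 of 6 against 20.5%. Both agents against Wnt3a gave 2 of 6 against 17.7%, and both agents against menthol 1 of 6 against 11.3%. Between all 6 libraries with menthol and all 6 without, no member was free of overlap, against 1.54% of all genes. The median difference of the 6 members was -0.0074 for Wnt3a over both menthol levels and 0.0048 for menthol over both Wnt3a levels, beside 0.0032 and -0.00098 over all genes tested.

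Genes whose log2 values followed each subunit most closely over the 12 libraries are given as a description, since all points share the same libraries. *Prkar1b* was followed by *Laptm4b* (Pearson r = 0.91, Spearman rho = 0.76) and *Mpc2* (r = 0.91, rho = 0.76), and *Prkar2a* by *Wwtr1* (r = 0.97, rho = 0.91) and *Ptpn14* (r = 0.96, rho = 0.90). *Prkaca* was followed by *Pogz* (r = 0.93, rho = 0.90) and *Dcaf8* (r = 0.92, rho = 0.77), and *Prkacb* by *Mettl27* (r = 0.89, rho = 0.85) and *Tufm* (r = 0.89, rho = 0.84). For *Prkar1a* they were *Cdv3* (r = 0.87, rho = 0.88) and *Dcun1d3* (r = 0.83, rho = 0.83), and for *Prkar2b* *Edem1* (r = 0.88, rho = 0.85) and *Gle1* (r = 0.85, rho = 0.85). No subunit was among the 2 closest genes of another. With only 2 genes kept of 11451 tested, this does not show whether subunits varied together.

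Among inhibitors and regulators of PKA, 5 of 7 listed genes were tested and 0 passed in any comparison by limma or by voom. With Wnt3a over both menthol levels 0 had an unadjusted p under 0.05, and the median difference of the list was -0.012, beside 0.0032 over all genes tested. *Pja2*, a ubiquitin ligase that acts on regulatory subunits, had a mean FPKM of 27.5, and *Pdpk1*, the kinase that phosphorylates the activation loop of the catalytic subunit, one of 17.5. Of the genes of the heat-stable inhibitor peptides, *Pkig* had a mean FPKM of 4.01 and *Pkia* one of 1.64, while *Pkib* had at most 4 reads in any library. *Prkx*, a related catalytic kinase, had a mean FPKM of 7.91.

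Of 17 genes of A-kinase anchoring proteins, 11 were tested and 1 passed with Wnt3a over both menthol levels, in the direction of a fall. It was *Akap12*, the gene of a large scaffold that binds type II regulatory subunits near the plasma membrane and the most abundant of the list. Its FPKM was 83.1, 75.6 and 77.5 in control cells, 76.4, 67.8 and 71.7 with menthol, 60.9, 59.0 and 63.5 with Wnt3a, and 60.9, 57.5 and 58.0 with both agents. All 6 libraries with Wnt3a were below all 6 without it. It fell by 0.33 on the log2 scale (SE 0.033, adjusted p = 0.000349 by limma) over both menthol levels, by 0.36 for Wnt3a against control (adjusted p = 0.00714) and by 0.42 for both agents against control (adjusted p = 0.000673). Without the variance trend the adjusted p for Wnt3a against control was 0.0579. With voom, *Akap2* also passed for Wnt3a against control, for both agents against control and for any difference. By limma the other 10 did not pass, *Akap8*, the next in abundance, with a mean FPKM of 31.0 among them, and the median difference of the list was -0.016.

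Of 12 genes of PKA substrates, 11 were tested and 1 passed with Wnt3a over both menthol levels. *Gli3*, the gene of a Hedgehog pathway factor that PKA marks for processing into a repressor, fell by 0.23 (SE 0.041, adjusted p = 0.0150 by limma), with FPKM means of 16.5 in control cells, 16.0 with menthol, 13.2 with Wnt3a and 14.5 with both agents. The adjusted p was 0.0574 with no FPKM minimum and 0.0547 without the variance trend, both above 0.05, so *Gli3* did not pass there. *Ctnnb1*, which encodes β-catenin, and *Stmn1*, which encodes the microtubule regulator stathmin, were the most abundant, with mean FPKM of 176.8 and 104.2, and did not pass. The median difference of the list was -0.013. Of 18 target genes of CREB, 13 were tested and 0 passed in any comparison by limma or by voom, at most 2 had an unadjusted p under 0.05 in any 1 comparison, and with Wnt3a over both menthol levels 8 were higher and 5 lower, with a median difference of 0.030. *Junb* and *Dusp1* led this list in abundance, with mean FPKM of 102.1 and 43.9.

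**Figure D4:**
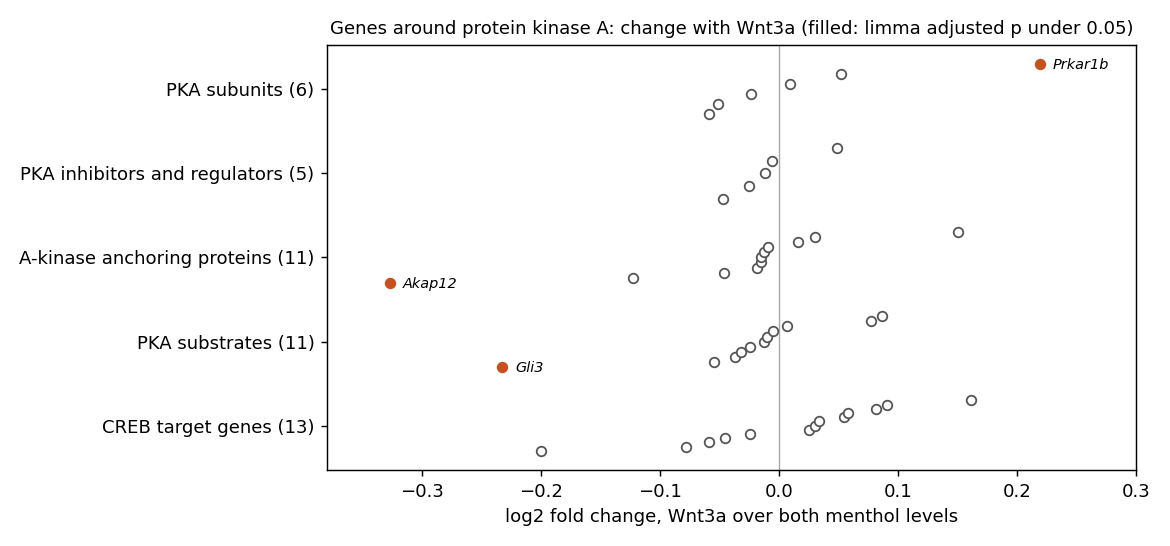
Difference with Wnt3a over both menthol levels on the log2(FPKM + 0.1) scale, with 1 point per tested gene, for the PKA subunits and 4 lists of genes around the kinase; the number of tested genes is in brackets and filled points have a limma adjusted p under 0.05. *Prkar1b* (0.22) is the filled point on the right, and *Akap12* (-0.33) and *Gli3* (-0.23) are those on the left.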

How the data were processed

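RNA of 12 ND7/23 libraries, 3 in each of 4 groups, was sequenced as paired-end reads. Per the methods, the authors removed low-quality reads with fastp, mapped with HISAT, obtained counts from HTSeq-count and calculated FPKM. The deposited FPKM values of 21556 genes were used as they stand. The submitters' processing notes name the build mRatBN7.2, R 3.2.0 and DESeq2. Aligner settings, strand and annotation release are not given in the sources used here.

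FPKM is a normalized value, so limma 3.58.1 (R 4.3.3) was used in place of a count test, on log2(FPKM + 0.1) for the 11451 genes whose mean FPKM reached 0.5, with 4 group means, a variance trend and no replicate block. Because 1 read adds a fixed step to a gene's FPKM, whole read counts were recovered for 21556 of 21556 genes (relative tolerance 1e-11), and they entered limma voom as an alternative and gave gene lengths. For 1804 genes above 0 in 1 library the count rests on 1 value. Both steps were tested on simulated data. Intervals of 2 SE and read counts cover these libraries, and depth limits *Prkar2b* most.

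Group and replicate number came from the labels. The genes named are the 6 subunits, list genes that passed or led their list in abundance, and the 2 genes most correlated with each subunit. *Akap2*, *Gap43*, *Pkia*, *Pkig*, *Prkx*, *Pkib* and the other markers named beside results were added to these, and 1 listed marker is not reported here. The members, lists and tests were chosen with earlier results of these data known. Alternatives were pseudocounts of 0.01 and 1, an FPKM minimum of 1 or none, median-centred libraries, the replicate block, no trend, fits of the compared groups alone, voom, each library left out in turn, and shares from reads not divided by length. Figures were drawn with matplotlib 3.10.9 in Python 3.11.15.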

Additional observations from a re-analysis of the deposited data

How the results depend on the processing

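For 30 chosen changes of named genes, 21 alternative settings gave 618 values. Of these, 567 kept their direction and side of the threshold, 44 lost the threshold, 3 gained it and 4 changed sign near 0. The number of subunit genes that passed with Wnt3a over both menthol levels, 1, became 0 with no FPKM minimum and 0 without the variance trend, and ranged from 0 to 1 as each library was left out; the adjusted p of *Prkar1b* was then 0.0528 and 0.0532, and 0.00235 to 0.0536 over all alternatives. The 1 gene that passed for any difference became 0 with no FPKM minimum and 0 without the trend, and ranged from 0 to 1 as each library was left out. With voom, 1 subunit gene passed for Wnt3a against control and 1 for menthol over both Wnt3a levels, and leaving out each library gave 0 to 1 for the former. With each library left out, the *Prkar1b* interaction ranged from -0.032 to 0.072 and the difference of *Prkaca* between both agents and control from -0.0029 to 0.034. The cause of these changes was not tested. Reads not divided by gene length gave a *Prkaca* share of 47.7%, a *Prkar1a* share of 55.6% and a *Prkar1b* share of 4.56%, since the genes differ in length, the 7840 bases of *Prkacb* against 2514 of *Prkaca* above all. Libraries of different groups with the same replicate number did not deviate together (r from -0.055 to 0.15, over 0.1 in 1 of 18 pairs), and a replicate block left every count of passing subunit genes as it was, with an adjusted p of 0.0139 for *Prkar1b* with Wnt3a over both menthol levels. Counts over all genes moved more. Voom raised the 50 genes for Wnt3a against control to 303, the 92 for Wnt3a over both menthol levels to 279, the 132 for menthol over both Wnt3a levels to 294, the 112 for any difference to 500, the 95 for both agents against control to 261, the 12 for menthol against control to 60, the 6 for both agents against Wnt3a to 143 and the 11 for both agents against menthol to 33. Without the trend the same counts were 2, 40, 39, 30, 40, 0, 0 and 2, and with no FPKM minimum 9, 57, 85, 60, 60, 2, 0 and 2. Fits of the compared groups alone gave 17, 49, 3, 0 and 4 for the 5 pairs of groups in that order, and the block gave 21 for menthol against control and 24 for both agents against Wnt3a. Leaving out 1 library took Wnt3a against control to 6 without control replicate 3 and to 291 without Wnt3a replicate 3, menthol against control to 0 without control replicate 3, and both agents against Wnt3a to 0 without Wnt3a replicate 1 and to 38 without Wnt3a replicate 3. It gave 55 to 151 for Wnt3a over both menthol levels, 52 to 143 for menthol over both Wnt3a levels, 61 to 139 for any difference, 41 to 100 for both agents against control and 3 to 14 for both agents against menthol. The interaction had 0 genes, 1 with no FPKM minimum, 1 without control replicate 1 and 1 without menthol with Wnt3a replicate 1.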
